A study of Mus musculus with 6 samples.

Results

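The D-type cyclins, the kinases they activate and the inhibitors of these kinases were followed in embryonic mouse pancreas after treatment with AMI-5. They were taken by name from the deposited gene counts and make up 10 of 49671 genes: the D-type cyclin genes Ccnd1, Ccnd2 and Ccnd3, the kinase genes Cdk4 and Cdk6, the CIP/KIP inhibitor genes Cdkn1a (p21), Cdkn1b (p27) and Cdkn1c (p57), and the INK4 inhibitor genes Cdkn2c (p18) and Cdkn2d (p19). All 10 passed the filter on low counts. The samples were pancreata of C57BL/6J mouse embryos of stage E14.5, 3 controls and 3 exposed to AMI-5 at 10 µM, a compound known to inhibit arginine and other protein methyltransferases. The labels refer the growth and treatment steps to publications not used here. They do not say whether replicates were separate animals or cultures, so p-values measure only the spread between these samples, and part of it may be technical. The labels also give A samples an older release of the library kit than the rest. Control titles carry A and AMI-5 titles Am, so, read literally, kit and treatment cannot be told apart. Libraries held 12445425 to 13321899 counts in controls and 22894312 to 24805188 with AMI-5.

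Cells commit to a new round of division in the G1 phase. Growth signals raise D-type cyclins, which bind CDK4 or CDK6, and the active kinases phosphorylate the retinoblastoma protein and so free the E2F factors that switch on genes of DNA replication. INK4 proteins bind CDK4 and CDK6 directly and keep cyclins off them, whereas CIP/KIP proteins bind cyclin-kinase pairs, block CDK2 strongly and can also help to assemble cyclin D with CDK4. In the embryonic pancreas progenitors divide rapidly, endocrine cells leave the cell cycle as they form, and Cdk4 is needed for a normal number of beta cells.

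With AMI-5, all 3 D-type cyclin genes and both partner kinase genes were lower by nearly the same proportion, with fitted changes of -22.6% to -24.8% before any adjustment for GC content and length. Before that adjustment the inhibitors did not move together: Cdkn1c and Cdkn2c were lower, Cdkn1b was higher, and Cdkn1a and Cdkn2d did not pass the test. Of the inhibitors that passed, only Cdkn1c also did so in both fits adjusted for GC and length, given below. In the fit without that adjustment, 7 of the 10 genes were lower and 1 was higher at an adjusted p under 0.05 (edgeR quasi-likelihood, Benjamini-Hochberg over 17519 genes tested). Over all genes tested, 26.6% were lower and 27.5% higher by that rule, 54.1% in all. Over protein-coding genes of unique sequence, which share under 5% of their 50-base sequences with other genes, 30.9% were lower and 19.1% higher. The median log2 fold change was -0.37 for the 10 genes and -0.0013 for all genes tested. The same 8 genes were those whose AMI-5 libraries lay wholly outside the control range, 7 below and 1 above; over all genes tested this held for 30.6% below and 31.3% above, 61.9% in all. In bulk tissue, fewer cells of a type and less RNA per cell cannot be told apart.

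**Figure D1:**
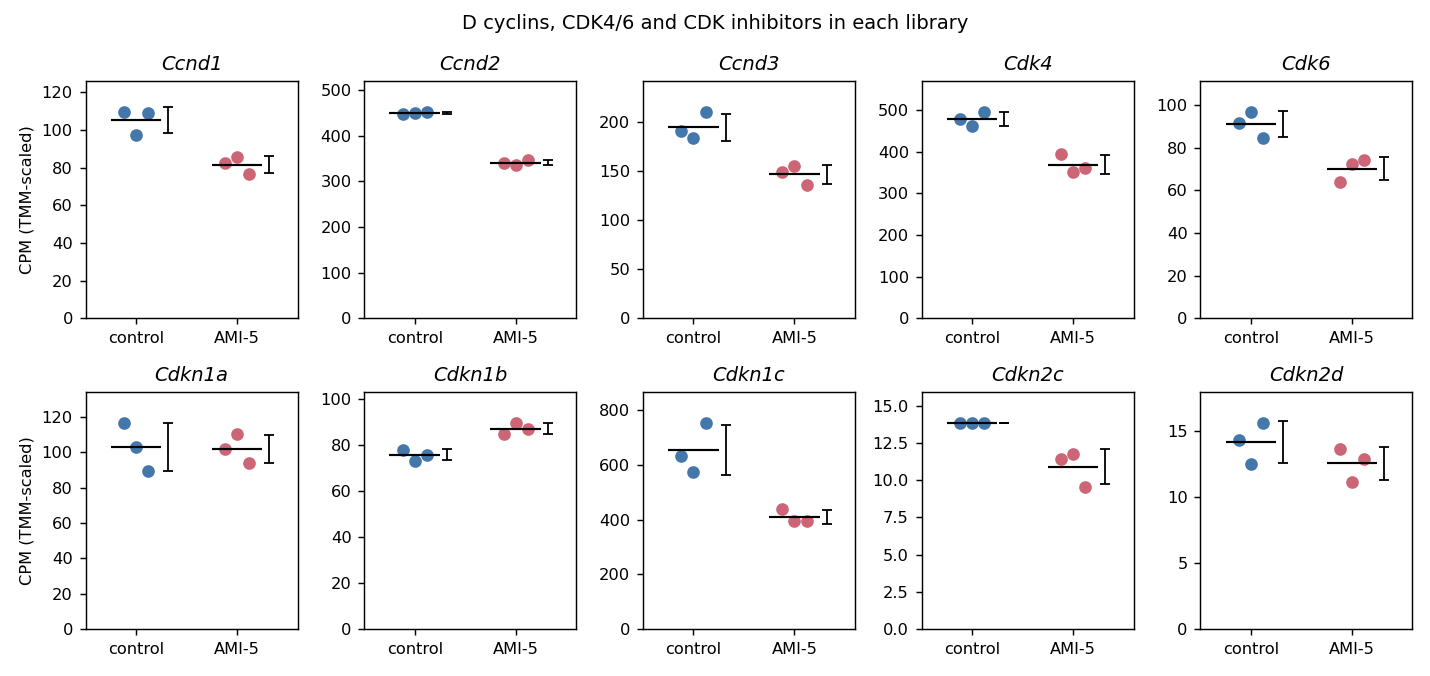
CPM (counts scaled to a common, TMM-adjusted library size, vertical axis from 0) of each gene in the 3 control and 3 AMI-5 libraries; points are libraries, horizontal lines are group means and bars are SD. The groups overlap only for Cdkn1a and Cdkn2d.

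Ccnd2 encodes the D-type cyclin with the most reads here (ENSMUSG00000000184, chromosome 6, 127125162 to 127152193, minus strand, mm10). It stood at 449, 449.8 and 452 CPM in the control libraries and at 340.1, 336 and 347 CPM in the AMI-5 libraries. Replicates lay close together within each group and far from the other group. Its log2 fold change was -0.40 (SE 0.050, edgeR adjusted p = 3.69e-05).

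Ccnd1, the D-type cyclin known as a target of growth factor signals (ENSMUSG00000070348, chromosome 7, 144929931 to 144939925, minus strand), was at 109, 97.2 and 109 CPM in controls and at 82.4, 85.4 and 76.5 CPM with AMI-5. Every AMI-5 library was below the lowest control, and the log2 fold change was -0.37 (SE 0.067, adjusted p = 0.000608). Ccnd3, the D-type cyclin best known from lymphocyte development (ENSMUSG00000034165, chromosome 17, 47505051 to 47599691, plus strand), was at 190.5, 184 and 210.0 CPM in controls and at 149, 154 and 135 CPM with AMI-5. The groups again did not overlap, and its fold change on the log2 scale was -0.41 (SE 0.069, adjusted p = 0.000345). Ccnd3 shares 1.99% of its 50-base sequences with other annotated genes, most of these with the processed pseudogene Ccnd3-ps. Fold changes in these libraries also varied with GC content and exon length, and adjusted for GC and length on all genes Ccnd3 turned to 0.24 (adjusted p = 0.0118) and Ccnd2 no longer passed (-0.098, adjusted p = 0.121). With the values adjusted on genes of unique sequence, Ccnd3 was at -0.074 (adjusted p = 0.436), Ccnd2 at -0.30 (adjusted p = 0.000791) and Ccnd1 at -0.21 (adjusted p = 0.0336).

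Before adjustment for GC and length, the balance among the 3 cyclins differed by less than the spread between libraries. Ccnd2 took 51.8% ± 1.51 of the summed D-type cyclin reads per kilobase in controls and 51.6% ± 1.95 under AMI-5 (SD, n = 3, exact permutation test, two-sided, p = 0.80). Ccnd1 took 24.2% ± 1.00 and 24.6% ± 0.847 (exact permutation test, p = 0.60), and Ccnd3 took 24.0% ± 1.01 and 23.7% ± 1.11 (exact permutation test, p = 0.90). With 3 against 3 libraries the smallest possible p is 0.1, so no such test could reach 0.05. Adjusted for GC and length on all genes, the log2 fold changes of Ccnd1, Ccnd2 and Ccnd3 lay further apart, at -0.19, -0.098 and 0.24. Adjusted on genes of unique sequence they were -0.21, -0.30 and -0.074. The length used matters for Ccnd3, since its deposited length of 8775 bases merges all annotated exons while its longest coding transcript has 2113. The adjustment for GC and length also used the deposited length. With coding transcript lengths Ccnd3 took 48.1% and 47.8% of the sum and Ccnd2 37.2% and 37.2%, so which cyclin was highest per length depends on the transcript.

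**Figure D2:**
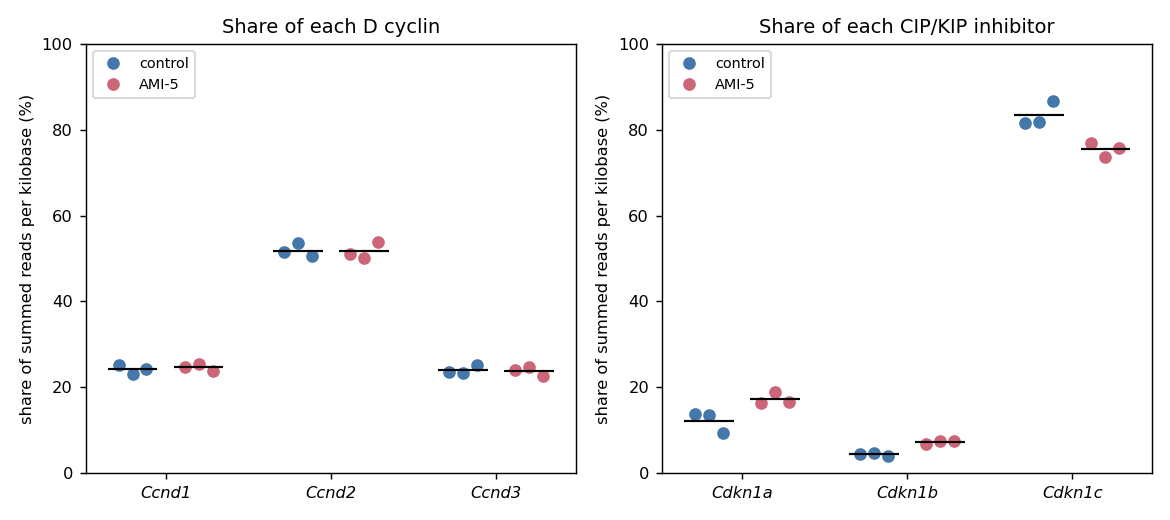
Share (%) of each gene in the summed reads per kilobase of its family, for the D-type cyclins (left) and the CIP/KIP inhibitors (right); points are libraries and lines are group means. The D-type cyclin shares overlap between groups, while the Cdkn1c share is lower in every AMI-5 library, with means of 83.4% and 75.5%.

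Cdk4, a catalytic partner of all D-type cyclins (ENSMUSG00000006728, chromosome 10, 127063534 to 127067920, plus strand), was at 479, 462 and 496 CPM in controls and at 395, 352 and 362 CPM with AMI-5. The highest AMI-5 library was below the lowest control, and the log2 fold change was -0.37 (SE 0.060, adjusted p = 0.000253). It was 0.068 when adjusted for GC and length on all genes (adjusted p = 0.363) and -0.21 when adjusted on genes of unique sequence (adjusted p = 0.0167). Exons of Cdk4 overlap 604 exonic bases of Tspan31 on the other strand, which had a mean of 1251 reads in controls and 2242 with AMI-5. The strand setting of the counting is not stated in the labels, so reads from that stretch cannot be told apart. Likewise, Ccnd1 overlaps 1100 exonic bases of LTO1 (mean of 429 and 553 reads) and Ccnd3 overlaps 361 of Bysl (509 and 604 reads). For all of these overlapping genes the reads are raw counts, not scaled for the larger AMI-5 libraries. They therefore do not show whether these genes were higher or lower with AMI-5.

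Cdk6, the other partner kinase (ENSMUSG00000040274, chromosome 5, 3341485 to 3531008, plus strand), was at 91.8, 96.9 and 84.6 CPM in controls and at 63.99, 72.6 and 74.3 CPM with AMI-5, without overlap. Its log2 fold change of -0.37 (SE 0.073, adjusted p = 0.00102) equalled that of Cdk4 at this rounding. Cdk6 took 4.24% ± 0.417 of the summed Cdk4 and Cdk6 reads per kilobase in controls and 4.25% ± 0.536 under AMI-5 (SD, n = 3, exact permutation test, p = 1). When adjusted for GC and length on all genes, Cdk6 was at -0.18 and missed the threshold (adjusted p = 0.0518), and it was at -0.35 when adjusted on genes of unique sequence (adjusted p = 0.00394).

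The promoters of both kinase genes are shown because they differ in E-boxes, the CACGTG motif bound by MYC and related factors. The sequences are the 250 bases before the RefSeq start site (GRCm38.p6), with each CACGTG in capitals. The motif is its own reverse complement, so one search covers both strands.
Cdk4, chr10:127063285-127063534, plus strand: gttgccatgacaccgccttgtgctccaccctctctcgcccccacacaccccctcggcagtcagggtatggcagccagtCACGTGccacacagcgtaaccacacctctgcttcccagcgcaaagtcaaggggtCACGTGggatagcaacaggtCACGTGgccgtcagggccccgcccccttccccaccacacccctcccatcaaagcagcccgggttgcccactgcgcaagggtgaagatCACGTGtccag
Cdk6, chr5:3343643-3343892, plus strand: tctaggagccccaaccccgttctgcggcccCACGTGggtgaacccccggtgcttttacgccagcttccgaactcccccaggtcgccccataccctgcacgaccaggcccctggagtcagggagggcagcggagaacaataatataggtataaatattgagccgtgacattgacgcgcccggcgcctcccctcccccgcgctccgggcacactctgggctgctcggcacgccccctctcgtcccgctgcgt
The Cdk4 window holds 4 E-boxes and the Cdk6 window 1. Of 32851 promoter windows of this length, 6.02% hold at least 1 CACGTG, and 7 windows (0.0213%) hold at least 4. A match describes letters, not a bound site. Transcripts of the MYC genes, named here after their values were seen, had log2 fold changes of -0.35 for Myc, -0.58 for Mycn and -0.44 for Mycl (adjusted p = 0.00457, 0.000567 and 0.000957). They were at 0.10, -0.11 and -0.075 when adjusted for GC and length on all genes, and none of them then passed (adjusted p = 0.316, 0.391 and 0.478). When adjusted on genes of unique sequence, they were at -0.18, -0.40 and -0.21, and whether these passed the threshold is not given here. Of the 16 MYC network, FOXO and p53 family factors tested, 8 were lower and 3 higher before adjustment. Over all genes tested, 26.6% were lower and 27.5% higher.

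Cdkn1c had the largest change of the 10 genes before adjustment for GC and length; adjusted on all genes Cdkn2d had a larger one (-0.75), and adjusted on genes of unique sequence Cdk6 (-0.35) and Cdkn1c (-0.35) were alike. It encodes p57, an imprinted inhibitor expressed from the maternal allele that accompanies cell cycle exit in many embryonic tissues (ENSMUSG00000037664, chromosome 7, 143458339 to 143461050, minus strand). It was at 634, 576 and 755 CPM in controls and at 439, 396 and 394 CPM with AMI-5. Control values were spread more widely than AMI-5 values, and the groups did not overlap. The log2 fold change was -0.68 (SE 0.094, adjusted p = 0.000177), a change of -37.5%. It was -0.28 when adjusted for GC and length on all genes (adjusted p = 0.0272) and -0.35 when adjusted on genes of unique sequence (adjusted p = 0.0184). Endocrine markers, read beside it because endocrine cells leave the cell cycle, were more often lower: of 14 tested, 1 was higher and 6 were lower. Their summed levels overlapped, at 4726 to 5426 CPM in controls and 4972 to 6378 CPM with AMI-5. Of 13 mesenchyme markers tested, 3 were higher and 5 lower, with sums of 9758 to 10226 and 9344 to 10729.7 CPM. By the same rule 27.5% of all genes tested were higher and 26.6% lower. The part of these markers in the change of Cdkn1c was not tested.

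Cdkn1b was the only one of the 10 genes that was higher. Its protein, p27, holds CDK2 inactive in resting cells and is controlled largely through its degradation (ENSMUSG00000003031, chromosome 6, 134920401 to 134925513, plus strand). It was at 78.1, 73.3 and 75.9 CPM in controls and at 84.9, 89.8 and 86.9 CPM with AMI-5. The groups were close but did not overlap. The log2 fold change was 0.20 (SE 0.056, adjusted p = 0.00911), a rise of 15.1%. Under scaling by totals alone 22.6% of all genes were higher and 33.6% lower, and the Cdkn1b call was lost (0.11, adjusted p = 0.134), as it was when adjusted on genes of unique sequence (0.070, adjusted p = 0.333) and when adjusted for GC and length on all genes (-0.080, adjusted p = 0.247). Cdkn1b has the lowest GC content of the 10 genes, 43.9%, and Cdkn1c the highest, 59.8%.

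The Cdkn1b promoter is shown as that of the only gene that was higher. Its capitals mark CCAAT, the box bound by the factor NF-Y, searched on both strands.
Cdkn1b, chr6:134920151-134920400, plus strand: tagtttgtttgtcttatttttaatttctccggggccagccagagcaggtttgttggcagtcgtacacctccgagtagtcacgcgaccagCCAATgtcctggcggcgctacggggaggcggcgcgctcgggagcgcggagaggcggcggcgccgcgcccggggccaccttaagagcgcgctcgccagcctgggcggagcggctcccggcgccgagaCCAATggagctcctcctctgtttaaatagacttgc
The window holds 2 CCAAT boxes, and 33.8% of all windows hold at least 1. It holds no CACGTG. The E2F motifs searched, TTTCGCGC (in 0.256% of windows) and TTTGGCGC (in 0.417%), were in none of the windows of these genes, on either strand. Promoters were matched for 7 of the 10 genes, all but Ccnd1, Ccnd2 and Cdkn1c.

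Cdkn1a encodes p21, the inhibitor that p53 induces after DNA damage (ENSMUSG00000023067, chromosome 17, 29090976 to 29100727, plus strand). It was at 117, 103 and 89.3 CPM in controls and at 102, 110.2 and 94.2 CPM with AMI-5. The groups overlapped, and the log2 fold change was -0.014 (95% interval -0.23 to 0.20, adjusted p = 0.916). The upstream start of Cdkn1a is shown because its window holds a p53 element, in capitals, searched as a pair of adjacent decamers with at most 1 mismatch outside their cores, a pattern that covers both strands.
Cdkn1a, chr17:29090729-29090978, plus strand: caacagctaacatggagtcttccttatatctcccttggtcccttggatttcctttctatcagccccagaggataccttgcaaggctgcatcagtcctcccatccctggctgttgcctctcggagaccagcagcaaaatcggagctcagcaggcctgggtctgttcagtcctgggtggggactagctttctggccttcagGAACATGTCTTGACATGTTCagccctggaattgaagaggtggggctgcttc
Such an element is in 0.0457% of all windows, and none was found at the downstream start of Cdkn1a. Trp53, the gene of p53 itself, had a log2 fold change of -0.72 (adjusted p = 1.46e-06). Of 22 other p53 target genes tested, 8 were higher and 4 lower, against 27.5% higher and 26.6% lower over all genes tested, and their median log2 fold change was 0.077. Cyclin G1, Ccng1, rose by 0.52 on the log2 scale and the ribonucleotide reductase subunit Rrm2b by 0.59, the apoptosis inducer Bbc3 was at -0.50 (adjusted p = 0.000359), and the kinase gene Plk2, the most abundant, was at -0.096 (adjusted p = 0.291). With libraries scaled by their totals alone, 5 targets were higher and 7 lower. When adjusted for GC and length on all genes, Ccng1 was at 0.26, Rrm2b at 0.31 and Bbc3 at 1.10. When adjusted on genes of unique sequence, they were at 0.15, 0.36 and 0.081.

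The makeup of the CIP/KIP sum differed between the groups. Cdkn1c took 83.4% ± 2.84 of the summed CIP/KIP reads per kilobase in controls and 75.5% ± 1.65 under AMI-5 (SD, n = 3). Cdkn1a took 12.2% ± 2.45 and 17.3% ± 1.33, and Cdkn1b took 4.36% ± 0.403 and 7.22% ± 0.479. For each of these shares the groups did not overlap (exact permutation test, two-sided, p = 0.10 for each, the smallest that 3 against 3 allows). The 3 shares sum to 100%, so they are not independent. They are not adjusted for GC and length: when adjusted for GC and length on all genes, the log2 fold changes of Cdkn1a, Cdkn1b and Cdkn1c lay closer together, at 0.072, -0.080 and -0.28, and at 0.095, 0.070 and -0.35 when adjusted on genes of unique sequence.

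The INK4 genes had the fewest reads. Cdkn2c, which encodes p18 (ENSMUSG00000028551, chromosome 4, 109660876 to 109667189, minus strand), was at 13.9, 13.8 and 13.9 CPM in controls and at 11.4, 11.8 and 9.55 CPM with AMI-5, without overlap. Its log2 fold change of -0.35 (SE 0.11, adjusted p = 0.0182) did not pass with DESeq2 (-0.33, adjusted p = 0.0575) or without AMI-5 replicate 3 (-0.24, adjusted p = 0.104). It was 0.042 when adjusted for GC and length on all genes (adjusted p = 0.767) and -0.21 when adjusted on genes of unique sequence (adjusted p = 0.147). Cdkn2d, which encodes p19 (ENSMUSG00000096472, chromosome 9, 21288410 to 21291407, minus strand), was at 14.3, 12.5 and 15.6 CPM in controls and at 13.6, 11.1 and 12.8 CPM with AMI-5. These ranges overlapped, and the log2 fold change was -0.17 (95% interval -0.43 to 0.084, adjusted p = 0.234). Cdkn2d moved to -0.75 when adjusted for GC and length on all genes (adjusted p = 0.000210) and to 0.015 when adjusted on genes of unique sequence (adjusted p = 0.933). The share of Cdkn2c in the summed INK4 pair was 36.6% ± 2.63 and 33.8% ± 4.02 (SD, n = 3, exact permutation test, p = 0.40). Of the other INK4 genes, Cdkn2b was at 4.89 ± 1.09 and 5.39 ± 0.606 CPM (log2 fold change 0.14, adjusted p = 0.546), and Cdkn2a had 2 to 8 reads per library and did not pass the filter.

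Levels can be compared between genes only per length. In CPM per kilobase of deposited exon length (RPKM), the control levels ran from Cdkn1c at 321 ± 44.8 and Cdk4 at 147 ± 5.22 through Ccnd2 at 47.9 ± 0.187, Cdkn1a at 46.4 ± 6.19, Ccnd1 at 22.3 ± 1.47, Ccnd3 at 22.2 ± 1.57 and Cdkn1b at 16.6 ± 0.528 down to Cdkn2d at 8.98 ± 1.01, Cdk6 at 6.51 ± 0.441 and Cdkn2c at 5.16 ± 0.00513 (SD, n = 3). On this length Ccnd2 and Cdkn1a, and Ccnd1 and Ccnd3, did not differ beyond their spread. With AMI-5, on the same length, Cdkn1a (45.9 ± 3.59 RPKM) stood above Ccnd2 (36.3 ± 0.583), and Cdkn1b (19.2 ± 0.542) stood above Ccnd1 (17.3 ± 0.962) and Ccnd3 (16.7 ± 1.13), without overlap between libraries. With coding transcript lengths these orders changed. Ccnd2 stood above Cdkn1a in both groups, at 71.2 and 49.5 RPKM in controls and 53.9 and 49.1 RPKM with AMI-5. Ccnd3, at 92.1 RPKM in controls, stood above Ccnd2 and far above Ccnd1, at 28.1 RPKM. Cdkn1b stayed below Ccnd1 in both groups, at 16.6 RPKM in controls and at 19.2 against 21.8 RPKM with AMI-5.

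Summed over the 3 genes, D-type cyclins were at 92.7, 89.4 and 95.1 RPKM in controls and at 70.7, 71.5 and 68.6 RPKM with AMI-5. The ratio of Cdkn1b to that sum was 0.185, 0.180 and 0.175 in controls and 0.264, 0.276 and 0.279 with AMI-5. Every AMI-5 library had a higher ratio than every control. For all 3 CIP/KIP genes together the ratio to the cyclin sum was 4.11, 3.86 and 4.49 in controls and 3.96, 3.69 and 3.71 with AMI-5, where the groups overlapped and the AMI-5 mean was the lower one. Both ratios were formed after the values were seen and were not tested. The AMI-5 mean was 1.51 times the control mean for Cdkn1b (1.52 times with coding transcript lengths) and 0.912 times for the CIP/KIP sum. The Cdkn1b ratio is not adjusted for GC and length: when adjusted for GC and length on all genes, the log2 fold changes were -0.080 for Cdkn1b and -0.19, -0.098 and 0.24 for Ccnd1, Ccnd2 and Ccnd3, and when adjusted on genes of unique sequence they were 0.070 against -0.21, -0.30 and -0.074.

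Other genes of the pathway were read from lists of its parts, beside 27.5% higher and 26.6% lower over all genes tested. Of 12 tested genes of E, A and B cyclins, their kinases and the CDC25 and WEE1-type regulators, 11 were lower and 0 higher, and their median log2 fold change was -0.52. Pkmyt1, an inhibitory kinase of CDK1, was at -1.03, Cdk2 at -0.53, the phosphatase Cdc25a at -0.43 and Ccna2, cyclin A2, at -0.32. Ccne2, named after its value was seen, was the one not called, at 0.053 (adjusted p = 0.734). Of 26 E2F target genes of DNA replication, 25 were lower and 0 higher (median -0.63). Among them were Uhrf1 at -1.25, Mcm7 at -1.04 and Tyms at -1.01, while Mcm6, the most abundant, was at -0.21. Uhrf1, Mcm7 and Tyms share 15.4%, 18.1% and 5.25% of their 50-base sequences with other annotated genes, so their counts are uncertain. With genes of unique sequence fitted alone, 19 of 22 E2F targets were lower and 0 higher, beside 3210 lower of 12817 tested. When adjusted for GC and length on all genes, 25 of 26 were lower, beside 4120 of 17519 tested. In that fit 9 of the 12 cyclin, kinase and regulator genes were lower.

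Of 13 pocket protein, E2F and DP genes, 7 were lower and 2 higher (median -0.29). The repressor E2F genes E2f8 and E2f7 were at -0.89 and -0.84, and the E2F partner Tfdp1, 16.8% of whose sequence is shared, was at -0.57. The higher genes, named after their values were seen, were the retinoblastoma gene Rb1, from 15.1 ± 0.727 to 24.1 ± 1.41 CPM (SD, log2 fold change 0.68), and its relative Rbl2 (0.23). Rb1 was at 0.37 when adjusted for GC and length on all genes and at 0.46 when adjusted on genes of unique sequence. With libraries scaled by their totals alone Rbl2 was at 0.13 and did not pass (adjusted p = 0.104). Of 7 genes of the MuvB core, which with pocket proteins silences cell cycle genes in resting cells, and its partners, 4 were lower and 0 higher: Foxm1 was at -1.01, Mybl2 at -0.98, Lin37 at -0.29 and Rbbp4 at -0.17. Mybl2 shares 19.3% of its 50-base sequences and Lin37 6.23%, so their counts are uncertain, and with genes of unique sequence fitted alone 1 of 5 was lower.

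Of 18 genes of D cyclin and CIP/KIP protein turnover, 8 were lower and 2 higher (median -0.13), or 11 and 0 with libraries scaled by their totals alone. Skp2, the ubiquitin ligase subunit that marks p27 for degradation, was at -0.46 (adjusted p = 0.000179), Cdc20 at -1.12 and Ddb1, the most abundant, at -0.11 (adjusted p = 0.110). Cdc20 shares 10.4% of its 50-base sequences with other annotated genes, so its count is uncertain. Fzr1, an activator of the anaphase-promoting complex, was at -0.47, but at 0.24 when adjusted for GC and length on all genes and -0.072 when adjusted on genes of unique sequence. Of 16 MYC network, FOXO and p53 family factors, 8 were lower and 3 higher, or 3 and 7 when adjusted for GC and length on all genes. Trp63 went from 3.96 ± 0.682 to 0.534 ± 0.318 CPM (SD, log2 fold change -2.86, adjusted p = 2.33e-05). Its counts were low, at 6 to 61 reads per library. Zbtb17, which encodes MIZ1, was at -0.68, or 0.033 when adjusted for GC and length on all genes, and the MYC antagonist Mxd4, the most abundant, at 0.097 (adjusted p = 0.181). Of the 3 genes of the CDK-activating kinase, 1 was higher, Ccnh at 0.33 (adjusted p = 0.00600), and Cdk7 was at 0.023 (adjusted p = 0.762). When adjusted for GC and length on all genes, Ccnh did not pass (0.18, adjusted p = 0.102). Mnat1, named after its value was seen, was then lower at -0.46 (adjusted p = 0.000122), against -0.078 before (adjusted p = 0.352).

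**Figure D3:**
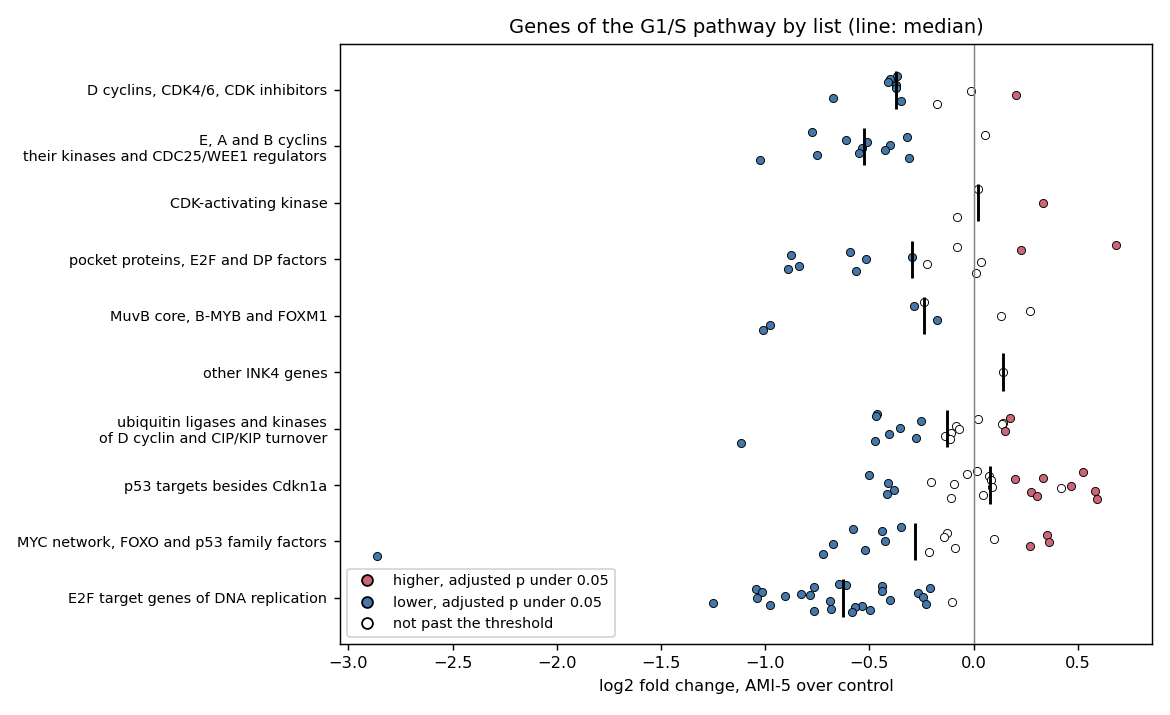
Log2 fold change of AMI-5 over control (horizontal axis) for each tested gene of the 10 and of the pathway lists; colour marks genes past the threshold and vertical lines are list medians. E2F target genes and E, A and B cyclin genes lie almost wholly below 0, and p53 targets lie on both sides.

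Many genes had profiles like those of Ccnd2 and Cdkn1b. By root mean square distance of centred log2 CPM over the 6 libraries, among 11922 protein-coding genes, the closest to Ccnd2 were Eif4enif1 (0.018), Ppil2 (0.019) and Gga1 (0.019). Closest to Cdkn1b were Cep126 (0.015), Actr3 (0.020) and Fam210a (0.022). Within a distance of 0.1 lay 1962 genes for Ccnd2 and 1690 for Cdkn1b.

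Markers of other cells moved between the same groups, where 27.5% of all genes tested were higher and 26.6% lower. Of 14 acinar markers, 10 were higher and 0 lower, with summed levels of 43088 to 58333 CPM in controls and 86962 to 111061 CPM with AMI-5. Erythroid markers summed to 13.8 to 33.6 and 81.0 to 243 CPM (5 of 7 higher, 1 lower) and leukocyte markers to 476 to 490.5 and 671 to 727 CPM (6 of 10 higher, 0 lower). The summed ranges overlapped for ductal and trunk markers (2623 to 2846 and 2681 to 2923 CPM), though 1 of 10 was higher and 5 were lower. They also overlapped for mesothelial markers (199 to 222 and 195 to 239 CPM, 2 of 7 higher, 0 lower). The same held for endothelial markers (538 to 655 and 439.6 to 632 CPM, 0 of 10 higher, 2 lower). Neural and glial markers were at 199 to 207 and 147 to 174 CPM (2 of 10 higher, 5 lower). No marker was at 0 in all libraries. Their part in the changes of the cyclin, kinase and inhibitor genes was not tested.

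**Figure D4:**
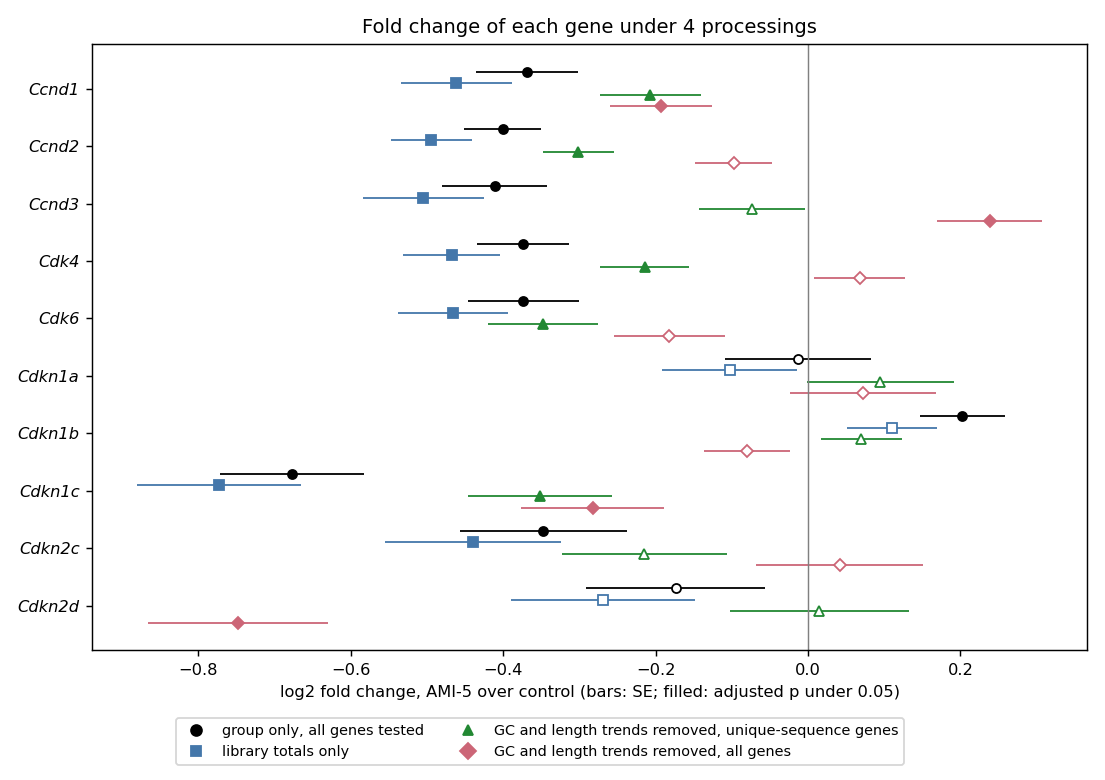
Log2 fold change of AMI-5 over control (horizontal axis, bars are SE, filled symbols passed adjusted p under 0.05) of each gene with group as the only term, with libraries scaled by totals alone, and adjusted for GC and length on genes of unique sequence or on all genes. Ccnd1 and Cdkn1c are below 0 and past the threshold in all 4 fits shown, and Ccnd3 runs from -0.50 to 0.24.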

How the data were processed

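Values were whole read counts per gene as deposited by the authors, not normalized, with the length of merged exons in bases. The submitters' processing notes name bcl2fastq (2.19.1), featureCounts (1.6.2), the aligner GSNAP and the build mm10. Not given in the sources used here are the strand setting and the handling of reads that map to several places. The 92 spike-in rows (1 read in all) were left out. Gene symbols, GC content and 50-base sequences shared with other genes came from GENCODE M21, which matched 49326 of 49671 genes. In R (4.3.3), edgeR (4.0.16) gave the main test: TMM scaling, filterByExpr, a robust quasi-likelihood F test on group, and adjustment by Benjamini-Hochberg. CPM uses TMM-adjusted library sizes, fold changes are AMI-5 relative to control, and ± is the SD over 3 libraries.

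Genes of unique sequence are protein-coding genes that share under 5% of 50-base sequences, in the same orientation, with another gene (12817 tested). Adjustment for GC and length entered smooth trends of the fold changes as offsets, fitted on all genes or on genes of unique sequence. The length was the deposited one. Since the trends were fitted on the AMI-5 to control fold changes themselves, they may also remove part of a real difference. Counts were simulated over 17519 genes for this comparison. In them 67, 67 and 66 genes were changed by 0.5, 1 and 2 on the log2 scale. The main test found 40.3%, 80.6% and 93.9% of these, and 7.74% of its calls were false. Far fewer genes were changed there than the 54.1% called in the data, so these rates may not carry over. There were 19 alternatives: other scalings and filters, DESeq2 (1.42.0), limma voom (3.58.1), a replicate block, the adjustments above, and leaving out each library. The genes and lists were chosen with earlier results of these data known. Named genes were the 10 themselves, up to 3 per list with the smallest p among those called and its most abundant gene, and the 3 profiles nearest to the called gene with the smallest p in each direction; exceptions are marked. Promoter sequences are from RefSeq, GRCm38.p6, and their motifs and the ratios of sums were chosen after the values were seen.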

Additional observations from a re-analysis of the deposited data

How the results depend on the processing

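Of the 19 alternatives, all kept Ccnd1 and Cdkn1c as lower. Adjusted for GC and length on all genes, 3 of the 10 genes were lower, Ccnd1, Cdkn1c and Cdkn2d (3 with the replicate block too), and 1 was higher, Ccnd3. Without and with the replicate block, the values that turned were then 0.24 and 0.24 for Ccnd3, 0.068 and 0.066 for Cdk4, -0.080 and -0.080 for Cdkn1b, and 0.042 and 0.038 for Cdkn2c; the cause was not tested. Adjusted on genes of unique sequence, an alternative added after seeing the data, 5 were lower and 0 higher. Library totals alone left 7 lower and 0 higher, and over all genes 3962 higher and 5883 lower, against 4820 and 4652. Fitting genes of unique sequence alone called 2945 higher, and adjusting on them 2088 higher and 2374 lower, with fewer genes tested. Leaving out 1 library gave 6 to 7 lower and 1 higher of the 10, and 4481 to 4744 higher and 3954 to 4316 lower over all genes. The Cdkn1b share of the CIP/KIP sum differed by 2.86 percentage points, and by 5.44 without length scaling. A replicate block alone changed no call among the 10 genes and gave 4704 higher and 4482 lower over all genes. Same-numbered libraries did not deviate together (correlations of -0.058 to -0.038). With 3 libraries per group this cannot settle whether the numbers pair the samples. Depth limits Cdkn2c and Cdkn2d most, with 171 to 304 reads per library.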
